A study of Mus musculus with 45 samples.

Results

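Rspondins (Rspo) are secreted ligands that raise Wnt/β-catenin signaling in the intestinal crypt. They bind the receptors Lgr4, Lgr5 and Lgr6 and thereby keep the E3 ligases Rnf43 and Znrf3 from clearing Frizzled receptors off the cell surface, and Lgr5 is itself a Wnt target gene and the classical marker of intestinal stem cells. The libraries described here ask which genes of small intestinal organoids without Lgr5 still responded when the concentration of mouse Rspondin 2 was raised. They are 4 of the 45 libraries of the series: cultures KO7 and KO2 of the knockin/knockout strain Lgr5-DTReGFP (genotype Lgr5 knockout, embryonic day E17.5, passage 4), each grown with 100 ng/ml and with 5 ng/ml of Rspondin 2. They were chosen by label alone, and all genes were analysed.

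Each culture originated from a single embryo, so a genotype is represented by 2 KO embryos. All cultures of the organoid set carry the same strain background. The reference is the response of 3 wild type (WT) cultures of that strain, WT10, WT5 and WT30, at the same stage, passage and doses (6 libraries). The medium held EGF and noggin in every condition, and none of the 30 organoid libraries was without Rspondin. In this strain the DTR-eGFP cassette sits within the first exon of Lgr5, so the knockout allele still makes Lgr5 RNA downstream of it, and the Lgr5 level in the table cannot check the genotype.

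Values are CPM (read counts scaled to the library total) as deposited, changes are differences of log2(CPM + 1) between 100 and 5 ng/ml, and tests are from limma over 19130 genes with Benjamini-Hochberg adjustment (called at 0.05). The 4 KO libraries held 23506272 to 25233873 reads on genes as estimated from the steps of the values, and 1 read in the shallowest of them was worth 0.0425 CPM. The organoids were epithelial: the summed level of 10 epithelial identity markers lay between 5508 and 7021 CPM in the 4 libraries. None of these 10 was called between the doses. The 15 mesenchymal and muscle markers summed to 9.1 to 12.3 CPM, with 3 of them at 0 in all 4 libraries and none of the 4 tested called. The 12 immune, endothelial and neural markers summed to 19.1 to 25.1 CPM, with 1 at 0 in all 4 libraries and none of the 5 tested called. Both KO cultures expressed the Y-linked gene Ddx3y (55 to 73.5 CPM in the 4 libraries) and the WT cultures did not (at most 0.15 CPM with Rspondin 2), while Xist reached 1655 to 3295 CPM in WT and 0.85 to 29.4 CPM in KO, so sex and genotype cannot be told apart in the comparison of KO with WT. Bulk RNA also cannot tell fewer cells of a type from less RNA per cell.

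Windows before the transcription start are shown first for Wnt targets and for some genes called higher or lower, because Wnt target genes are what Rspondin signaling is known to raise. TCF/LEF factors, which carry β-catenin to its target genes, bind the sequence CTTTGAT or CTTTGAA on either strand. Among genes with a RefSeq promoter (11319 of the 19130 tested), this motif lay within 250 bases before a start in 8 of the 107 genes called higher in KO (7.48%), in 1 of the 28 called lower (3.57%) and in 6.84% of all genes tested. Over all 32851 promoters of the table the share was 7.48%. The windows below (RefSeq, GRCm38.p6, the strand of the gene, motif in capitals) belong to Tnfrsf19, a receptor of the TNF family and Wnt target that rose in both cultures, to Sp5, a transcription factor and direct Wnt target that was not called, to Sgk1, a kinase gene called higher and chosen here after its values were seen, of whose windows this one holds the motif at 2 places, to Atoh1, the secretory lineage factor called lower, and to Spp1, the gene with the largest rise, whose window holds none. The other Tnfrsf19 window of the table and the window of Axin2 hold no match, and of the 6 windows of Sgk1 another has 1 match.
Tnfrsf19, chr14:61037988-61038237, minus strand: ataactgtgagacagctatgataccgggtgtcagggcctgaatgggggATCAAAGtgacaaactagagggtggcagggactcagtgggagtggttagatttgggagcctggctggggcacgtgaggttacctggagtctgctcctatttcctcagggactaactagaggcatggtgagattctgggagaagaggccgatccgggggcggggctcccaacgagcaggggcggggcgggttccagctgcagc
Sp5, chr2:70474673-70474922, plus strand: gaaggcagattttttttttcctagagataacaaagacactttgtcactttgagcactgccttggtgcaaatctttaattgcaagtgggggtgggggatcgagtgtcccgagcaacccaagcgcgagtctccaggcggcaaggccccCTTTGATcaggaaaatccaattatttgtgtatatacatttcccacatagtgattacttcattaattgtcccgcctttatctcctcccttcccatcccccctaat
Sgk1, chr10:21978422-21978671, plus strand: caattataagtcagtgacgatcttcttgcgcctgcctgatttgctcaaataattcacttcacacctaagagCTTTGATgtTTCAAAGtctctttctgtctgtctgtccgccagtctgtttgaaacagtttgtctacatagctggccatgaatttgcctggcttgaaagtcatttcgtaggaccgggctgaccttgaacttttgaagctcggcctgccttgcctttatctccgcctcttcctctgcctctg
Atoh1, chr6:64728875-64729124, plus strand: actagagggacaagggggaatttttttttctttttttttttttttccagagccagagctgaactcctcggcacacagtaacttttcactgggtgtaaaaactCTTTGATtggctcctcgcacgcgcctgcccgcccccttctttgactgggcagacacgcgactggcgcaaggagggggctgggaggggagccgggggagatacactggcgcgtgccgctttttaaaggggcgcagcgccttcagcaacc
Spp1, chr5:104434861-104435110, plus strand: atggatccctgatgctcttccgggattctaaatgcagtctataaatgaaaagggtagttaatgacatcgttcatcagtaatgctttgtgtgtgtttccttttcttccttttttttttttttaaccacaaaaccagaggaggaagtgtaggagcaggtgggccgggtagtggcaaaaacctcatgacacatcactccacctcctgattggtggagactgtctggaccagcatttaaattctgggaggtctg

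With both KO cultures in the fit, 184 genes were called higher and 40 lower at 100 ng/ml than at 5 ng/ml (0.962% and 0.209% of the genes tested, 1.17% in all). All 224 genes had the same sign in both cultures, and 170 of them had the larger change in KO7. The median change of the 184 genes was 1.04 in KO7 and 0.81 in KO2, and that of the 40 genes was -1.12 and -0.55. For 209 of the 224, both libraries at 100 ng/ml lay on 1 side of both libraries at 5 ng/ml, against 30.8% of all genes tested. The call used these same 4 libraries, so the shared sign and this separation follow in part from the call. Of the 224 genes, 117 had a mean of at least 5 CPM and 168 were protein-coding. Without culture KO7 the fit called 14 genes and without KO2 it called 383. Without the culture term it called 22 genes, all higher.

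Taken singly, KO7 had more genes with a large change than KO2. With 1 library per dose and no test, 353 genes were at least 1 higher on the log2 scale at 100 ng/ml in KO7 (1.85% of the genes tested) and 227 at least 1 lower (1.19%). In KO2 153 were at least 1 higher (0.8%) and 39 at least 1 lower (0.204%). With median-of-ratios scaling 267 genes were at least 1 higher and 284 at least 1 lower in KO7, and 126 and 48 in KO2. Without that scaling, both cultures shared 64 of the higher and 6 of the lower genes, and no gene was higher in one and lower in the other by that much. Of the genes higher in KO7, 114 had a change under 0.3 in size in KO2, and of those higher in KO2, 24 had one under 0.3 in KO7. In 9625 genes (50.3%) the change was under 0.3 in both.

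By the same measure WT10 had 1310 genes higher and 302 lower (6.85% and 1.58%), WT5 had 571 and 114 (2.98% and 0.596%), and WT30 had 1836 and 807 (9.6% and 4.22%). KO7 thus had fewer higher genes than any WT culture and more lower genes than WT5. Across all genes tested, the changes in KO7 and KO2 had a Pearson correlation of 0.30 and a Spearman correlation of 0.19, and 52.5% had the same sign. The points share the same 4 libraries, so this is a description only.

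**Figure D1:**
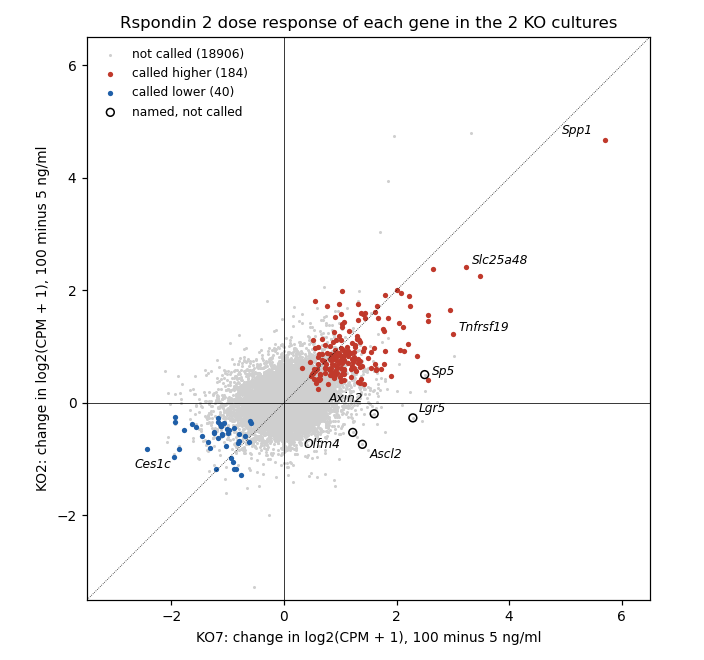
Change of each of the 19130 genes tested between 100 and 5 ng/ml of Rspondin 2, in log2(CPM + 1), in culture KO7 (horizontal) and culture KO2 (vertical). Red and blue points are the 184 genes called higher and the 40 called lower, and open circles are the Wnt and stem cell genes Lgr5, Axin2, Olfm4, Ascl2 and Sp5, which lie between 1.22 and 2.501 on the KO7 axis and between -0.74 and 0.50 on the KO2 axis.

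The difference between KO7 and KO2 was also tested gene by gene, and no gene was called. At an unadjusted p under 0.05 there were 1464 genes (7.65% of those tested). Each culture has a single library per dose, and in simulated data the test recovered 0% of genes made to differ by 1 and 19.5% of those made to differ by 2 on the log2 scale. No statement that a given gene responded in KO7 alone is therefore backed by a test.

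Of 32 Wnt targets and feedback genes, 26 were higher at 100 than at 5 ng/ml in KO7 and 11 in KO2, and 17 had a called smaller response in KO than in WT (3.2% of all genes). Over all genes, the 612 calls of a more negative response in KO became 26 in a fit without WT10 and 33 without WT30. With the 10 Rspondin 2 libraries alone there were 0. Counts of such calls in this and other lists therefore depend on which WT cultures and libraries are in the fit. Axin2, a feedback inhibitor induced by β-catenin (GRCm38, chr11:108920349-108950783), measured 138 CPM at 5 ng/ml and 423 CPM at 100 ng/ml in KO7. In KO2 it measured 433 CPM and 379 CPM. KO2 was thus as high at the low dose as KO7 at the high dose. The WT cultures went from 14.6 to 91 CPM at 5 ng/ml up to 462 to 615 CPM at 100 ng/ml, with no overlap between doses or, at the low dose, with KO. The KO response of 0.70 (SE 0.49, adjusted p = 0.56) was not called, the WT response was 3.73 and the difference of -3.03 (SE 0.64, adjusted p = 0.013) was called.

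Olfm4, a secreted glycoprotein of crypt base cells, measured 376 and 878 CPM at 5 and 100 ng/ml in KO7, and 1201 and 834 CPM in KO2. Ascl2, the transcription factor that maintains stem cell identity, measured 16 and 43.7 CPM in KO7, and 36.3 and 21.4 CPM in KO2. For both genes the high dose library was above the low dose library in KO7 and below it in KO2.

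RNA from the disrupted Lgr5 locus (chr10:115450311-115587780) measured 20.6 and 105 CPM in KO7, and 90.5 and 75 CPM in KO2, against 6.1 to 28.7 CPM at 5 ng/ml and 247 to 458 CPM at 100 ng/ml in WT. None of the 3 was called in KO (adjusted p = 0.83 for Olfm4, 0.79 for Ascl2 and 0.38 for Lgr5), and each was called in the comparison with WT, at -3.14, -2.97 and -3.51. Between KO7 and KO2 the response of Lgr5 differed by 2.56 (SE 0.88, adjusted p = 0.60). Lgr4, the related receptor that remains in these cells, measured 297 and 355 CPM in KO7 and 318 and 303 CPM in KO2 (0.09, adjusted p = 0.78).

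**Figure D2:**
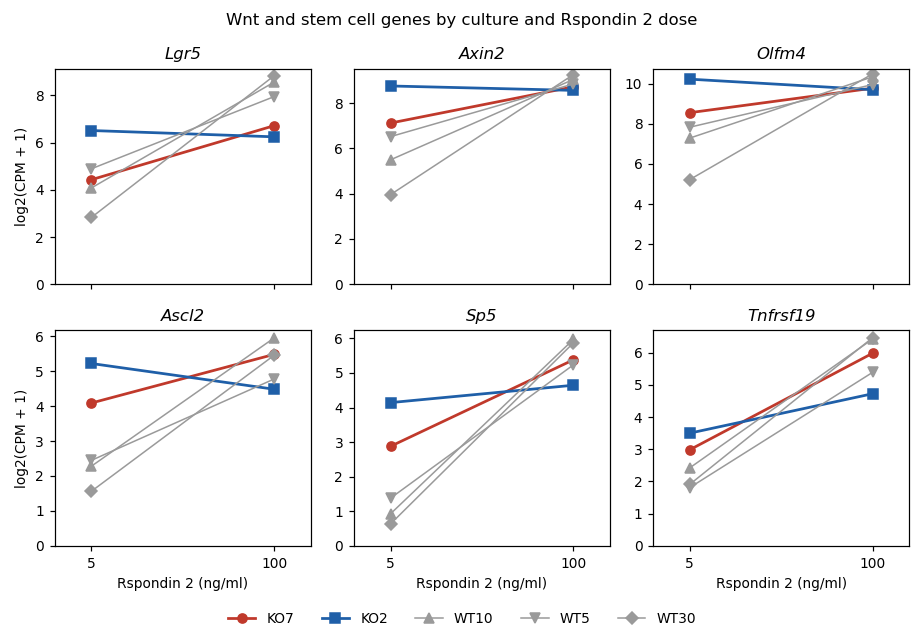
Level in log2(CPM + 1) of 6 Wnt and stem cell genes at 5 and 100 ng/ml of Rspondin 2, 1 line per culture (red KO7, blue KO2, grey the 3 WT cultures), 1 library per point. The blue line slopes down for Lgr5, Axin2, Olfm4 and Ascl2 and up for Sp5 and Tnfrsf19, the red line slopes up in all 6 panels, and at 5 ng/ml the grey points lie below both in every panel but that of Lgr5, where WT5 lies above KO7.

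As a list, 27 stem cell markers had a median change of 0.93 in KO7, -0.06 in KO2 and 2.11 in WT, where the medians over all genes tested were 0.08, 0.01 and 0.17. In KO7 25 of the 27 were positive and 11 at least 1, and in KO2 12 were positive and 15 negative, with Tnfrsf19 at least 1 higher (1.22) and Aqp4, a water channel gene, at least 1 lower (-1.26). Only Tnfrsf19 was called higher in KO (0.962% of all genes), 24 were called higher in WT (34.1% of all genes), and 20 had a called smaller response in KO than in WT (3.2% of all genes). Over all genes, 26 calls of a more negative response were left without WT10 and 33 without WT30. The 32 Wnt targets and feedback genes gave medians of 0.68 in KO7, -0.10 in KO2 and 1.37 in WT. Of them 2, Tnfrsf19 and Nkd1, were called in KO, both higher (0.962% of all genes). The lists share members, among them Tnfrsf19, Sp5, Lgr5 and Ascl2.

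Tnfrsf19 measured 6.9 CPM at 5 ng/ml and 62.1 CPM at 100 ng/ml in KO7, and 10.3 and 25.4 CPM in KO2. Nkd1, an intracellular feedback inhibitor of Wnt signaling, measured 0.4 and 7.25 CPM in KO7, and 1.05 and 4.65 CPM in KO2. In both genes the 2 libraries at 100 ng/ml lay above the 2 at 5 ng/ml. The KO responses were 2.11 (SE 0.36, adjusted p = 0.0071) and 2.01 (adjusted p = 0.0050), and both were smaller than in WT, at differences of -1.93 and -1.73. Sp5 measured 6.35 and 40.6 CPM in KO7, and 16.7 and 24 CPM in KO2, a KO response of 1.502 (adjusted p = 0.13) against 4.71 in WT. The E3 ligase gene Rnf43 measured 166 and 350.0 CPM in KO7, and 189 and 205 CPM in KO2, and was not called (adjusted p = 0.31).

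Among receptors and ligands, Wnt7b was the only one of 19 called (0.962% of all genes were called higher), going from 2.8 to 9.05 CPM in KO7 and from 0.2 to 2.6 CPM in KO2. In the list of R-spondin receptors and E3 ligases, the glypican gene Gpc3 was the only one of 9 called, and it was lower (41.5 and 15.6 CPM in KO7, and 48.2 and 29.5 CPM in KO2). Over all genes, 0.209% were called lower.

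To look at the whole WT program rather than at chosen lists, genes were chosen by their change in the WT cultures. In WT, 938 genes were called and at least 1 higher on the log2 scale, and 286 were called and at least 1 lower. The filter and the spread of that fit came from all 30 organoid libraries, KO included. With median-of-ratios scaling 610 and 532 genes were chosen. The 938 had a median change of 0.71 in KO7 and 0.13 in KO2, and the 286 of -0.88 and -0.04. Of the 938, 236 (25.2%) were at least 1 higher in KO7 and 49 (5.22%) in KO2. A change under 0.3 in size was seen in 115 (12.3%) in KO7 and 490 (52.2%) in KO2. Since a choice made on a culture favours that culture, each WT culture was also held out of the choice. The held-out medians of genes chosen as higher were 1.35 in WT10, 0.78 in WT5 and 1.82 in WT30. The same gene sets had medians of 0.58 to 0.78 in KO7 and 0.08 to 0.19 in KO2. For genes chosen as lower the held-out medians were -1.11, -0.64 and -1.72 in WT, and they ranged from -0.92 to -0.76 in KO7 and from -0.15 to 0.03 in KO2. For the genes chosen without WT5, the WT culture with the smallest response, the medians of 0.78 and -0.64 in WT5 stood beside 0.58 and -0.76 in KO7, and beside 0.08 and 0.03 in KO2.

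The levels show where the cultures differed. Over the 938 genes the median level in log2(CPM + 1) at 5 ng/ml was 2.95 in KO7 and 3.23 in KO2 against 1.93 to 2.37 in WT. At 100 ng/ml it was 3.71 in KO7 and 3.31 in KO2 against 3.56 to 3.91 in WT. Over the 286 genes the median went from 5.44 to 4.43 in KO7 and from 5.40 to 5.39 in KO2. At 5 ng/ml the KO cultures thus lay between the WT low dose and high dose levels.

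**Figure D3:**
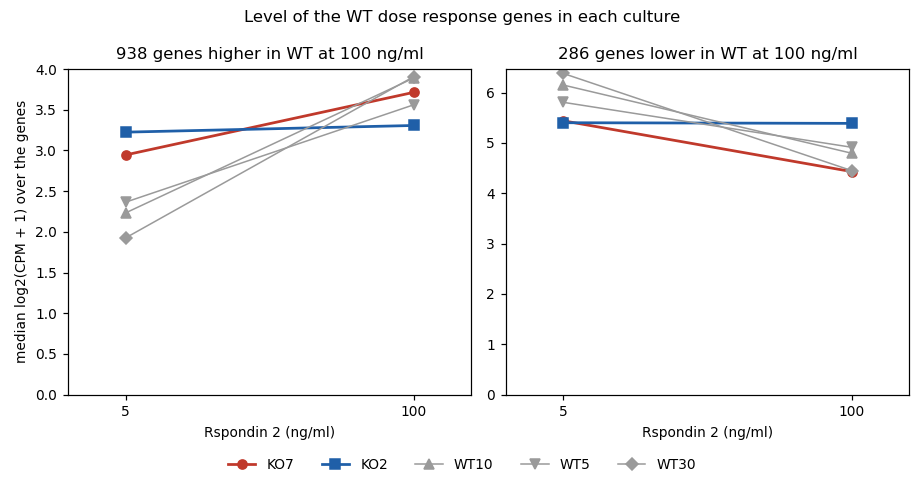
Median level in log2(CPM + 1) of the 938 genes higher and the 286 genes lower at 100 than at 5 ng/ml of Rspondin 2 in WT, in each culture at each dose. Lines join the 2 libraries of a culture (red KO7, blue KO2, grey WT), and the grey lines are steeper in part because the genes were chosen on them. The blue lines are nearly flat, and at 5 ng/ml both KO cultures lie above the 3 WT cultures in the left panel and below them in the right panel.

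Tested directly, the Rspondin 2 response was more negative in KO than in WT for 612 genes and more positive for 148 (3.2% and 0.774% of the genes tested, 3.97% in all). Of the 938 genes, 391 had a called smaller response in KO. The 938 were chosen on the same WT values, which favours such calls. The largest called differences below WT among genes with a mean of at least 5 CPM were in Lgr5, Pcdh8, Rgcc, Defa35 and Sp5. Pcdh8, a protocadherin, measured 4.45 and 15.9 CPM in KO7, and 44.8 and 42 CPM in KO2, while WT went from at most 4.15 to at least 33.2 CPM. Rgcc measured 6.05 and 18.8 CPM in KO7, and 53.6 and 29.7 CPM in KO2. The Paneth cell defensin gene Defa35 measured 26.1 and 16.1 CPM in KO7, and 29.4 and 20 CPM in KO2, against 1.8 to 5 CPM at 5 ng/ml and 20.8 to 43.1 CPM at 100 ng/ml in WT; defensin genes are near-identical copies, so its share of the reads is uncertain.

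The largest called differences above WT among genes with a mean of at least 5 CPM were in Spp1, described further on, and in Slc6a19, Maob, E2f2 and Slc26a3, which were called lower in WT, at changes of -1.45 to -1.73, and were not called in KO. Slc6a19, a brush border transporter of neutral amino acids, measured 64.3 and 50.3 CPM in KO7, and 104 and 171 CPM in KO2, so the doses were in opposite order in the 2 cultures. The number of genes called was 48 without KO2, 1804 without KO7, 28 without WT10, 1622 without WT5 and 37 without WT30, and it was 0 when the fit used the 10 Rspondin 2 libraries alone. Of the 5 largest called differences each way, Defa35 alone was still called without WT10, and Defa35 and Spp1 without WT30. With median-of-ratios scaling the split was 405 more negative and 195 more positive. The WT response itself (47.5% of genes called) went from 6516 higher and 2576 lower to 3841 and 4441, and that scaling moved the median WT change from 0.17 to -0.01.

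Some genes were higher at 100 ng/ml in both KO cultures. The largest rise was in Spp1, which encodes the secreted phosphoprotein osteopontin (ENSMUSG00000029304, chr5:104435118-104441050). It measured 0.55 CPM at 5 ng/ml and 79.8 CPM at 100 ng/ml in KO7, and 0.25 and 30.9 CPM in KO2. The mean went from 0.4 ± 0.212 to 55.4 ± 34.6 CPM (SD, n = 2), with no overlap, and the change of 5.19 (SE 0.46, adjusted p = 5.4e-06) was the largest of all genes tested. WT stayed at 0 to 0.1 CPM at 5 ng/ml and 0.3 to 6.15 CPM at 100 ng/ml, and the KO response was larger than that of WT by 3.80 (adjusted p = 0.0019). Without WT10 that difference was 3.68 and no longer called (adjusted p = 0.075).

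Slc25a48, a mitochondrial carrier gene, measured 5.05 and 55.7 CPM in KO7, and 4.7 and 29.4 CPM in KO2 (2.82, SE 0.45, adjusted p = 0.0040). Ptgds, the prostaglandin D2 synthase gene, measured 0.9 and 11 CPM in KO7, and 0.8 and 8.4 CPM in KO2 (2.52, adjusted p = 0.0025). For both genes the cultures were close at 5 ng/ml, and at 100 ng/ml KO7 was the higher. The WT responses were 2.77 and 2.70. The imprinted zinc finger gene Peg3 measured 42.3 and 334 CPM in KO7, and 28.1 and 90.9 CPM in KO2 (2.31, SE 0.42, adjusted p = 0.011).

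Loxl4, a lysyl oxidase that cross-links collagen and elastin, measured 9.45 and 60.8 CPM in KO7, and 2.9 and 10.5 CPM in KO2 (2.06, SE 0.46, adjusted p = 0.032). In this gene KO2 at the high dose was only just above KO7 at the low dose. The remaining rises among the 10 largest were in the magnesium channel gene Trpm6 (2.00), Ly6a (1.85), the organic anion transporter gene Slco4a1 (1.69) and the filamin gene Flnc (1.68). Slco4a1 measured 11.2 and 37.3 CPM in KO7, and 16.1 and 55.5 CPM in KO2, and its response was larger in KO than in WT by 1.23 (adjusted p = 0.044). The 10 were chosen for the same sign in both KO cultures, so leaving out KO7 could not change it. The changes in KO2 alone ran from 1.22 in Tnfrsf19 to 4.67 in Spp1. Ptgds, Spp1 and Tnfrsf19 were the only ones of the 10 called without the culture term.

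**Figure D4:**
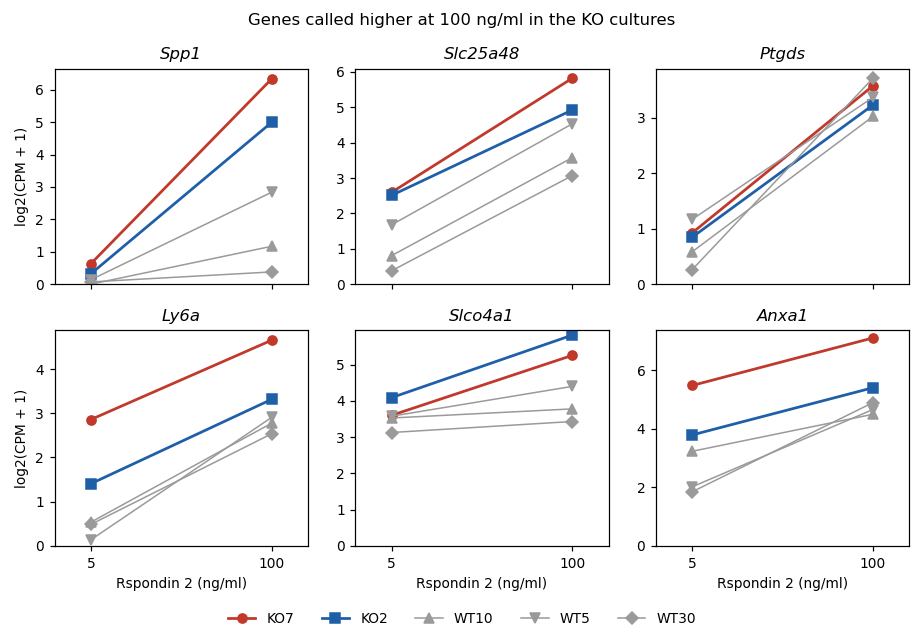
Level in log2(CPM + 1) of 6 genes called higher at 100 than at 5 ng/ml of Rspondin 2 in the KO cultures, 1 line per culture (red KO7, blue KO2, grey the 3 WT cultures), 1 library per point. Both KO lines rise in every panel, and for Spp1 they end at 79.8 and 30.9 CPM while the WT lines end at 6.15 CPM or less.

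Genes of the fetal and regenerative epithelium, a program of immature or injured gut epithelium, were the list with the most calls. Of 16 tested, 4 were called higher (0.962% of all genes), among them Spp1, Ly6a and Anxa1, and none lower, and the median change was 0.98 in KO7, 0.68 in KO2 and 1.60 in WT. Ly6a, which encodes the surface antigen Sca-1, measured 6.25 and 24.2 CPM in KO7, and 1.65 and 8.95 CPM in KO2 (1.85, SE 0.28, adjusted p = 0.0033). Anxa1, an annexin, measured 43.7 and 137 CPM in KO7, and 12.9 and 41.4 CPM in KO2 (1.62, adjusted p = 0.041). In both KO2 was the lower culture at each dose. The change was 1.79 in KO7 and 1.91 in KO2 for Ly6a, and 1.63 and 1.61 for Anxa1.

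Krt7, a keratin gene and the member with the highest level, measured 380.0 and 457 CPM in KO7, and 158 and 241 CPM in KO2. Areg, an EGF receptor ligand, measured 108 and 33.2 CPM in KO7, and 20.8 and 18.9 CPM in KO2, and was not called either. Without KO7 3 of the genes of this list were called, without KO2 6, and without the culture term 2, and none of the 7 members was called when genes with a mean of at least 10 CPM were fitted alone.

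Basement membrane and matrix genes gave 2 calls in 27, both higher (0.962% of all genes): Loxl4 and the laminin chain gene Lamc1. Lamc1 measured 86.7 and 156 CPM in KO7, and 111 and 156 CPM in KO2 (0.66, adjusted p = 0.034). The type IV collagen genes Col4a1 and Col4a2 were higher at 100 ng/ml in both cultures without being called: Col4a1 measured 17.3 and 59.8 CPM in KO7, and 11.6 and 25.6 CPM in KO2 (adjusted p = 0.15), and Col4a2 measured 20.2 and 75.3 CPM in KO7, and 12.4 and 28.7 CPM in KO2 (adjusted p = 0.11). The list had medians of 0.50 in KO7, 0.25 in KO2 and 0.73 in WT.

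Atoh1, the transcription factor that commits cells to the secretory lineages, measured 35.2 and 14.3 CPM in KO7, and 21.3 and 14.4 CPM in KO2 (-0.89, adjusted p = 0.014), and its change in WT was -0.04, with a called difference of -0.85. Klk1, a kallikrein protease gene, measured 12.4 and 4.35 CPM in KO7, and 26.1 and 14.5 CPM in KO2 (-1.06, adjusted p = 0.028). These were the 2 genes called among 20 goblet cell genes (0.209% of all genes were called lower). In the fit, where 8271 of all 19130 genes had a negative change, 19 of the 20 did. In KO7 18 were negative, and in KO2 13 were negative and 7 positive. The list had medians of -1.11 in KO7 and -0.16 in KO2.

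The goblet cell mucin gene Muc2 measured 1075 and 303 CPM in KO7, and 359 and 377 CPM in KO2, and Fcgbp, a mucus protein gene, measured 6028 and 2205 CPM in KO7, and 2750.0 and 2606 CPM in KO2. Neither was called, and in both the doses were far apart in KO7 and close in KO2. Summed over the list, goblet genes went from 9126 to 3540 CPM in KO7 and from 4411 to 4195 CPM in KO2.

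Enteroendocrine genes were mostly lower at 100 ng/ml in both cultures. Of 26 tested, 23 were negative in KO7 and 24 in KO2, and the medians were -0.76 and -0.53 against -0.41 in WT. Only 1 was called, Scg3 (-0.74, adjusted p = 0.046), where 0.209% of all genes were called lower. The hormone gene Cck measured 89.3 and 34.7 CPM in KO7, and 26.1 and 10.7 CPM in KO2 (-1.27, adjusted p = 0.075). Chgb, which encodes a granin of hormone granules, measured 214 and 120 CPM in KO7, and 199 and 115 CPM in KO2 (-0.81, adjusted p = 0.090). For Chgb both low dose libraries lay above both high dose libraries, whereas for Cck KO2 at the low dose lay below KO7 at the high dose.

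The 10 largest falls were in Ces1c, Piwil2, Emid1, Capn9, Atp2a3, Bcas1, Klk1, AA467197, Ccl28 and Gpc3, from -1.63 to -1.02. Capn9 changed by -1.94 in KO7 and -0.34 in KO2, and Bcas1 by -1.94 and -0.25. The KO2 change of Bcas1 (9.25 and 7.6 CPM) was thus under 0.3 in size. Ces1c, a carboxylesterase gene, measured 11.2 and 1.25 CPM in KO7, and 7.15 and 3.6 CPM in KO2 (SE 0.24, adjusted p = 0.0033). Atp2a3, the gene of the calcium pump SERCA3, measured 166 and 47.6 CPM in KO7, and 99.2 and 70.6 CPM in KO2. Ccl28, a mucosal chemokine gene, measured 35.7 and 20.5 CPM in KO7, and 43.8 and 17.4 CPM in KO2. It was the only one of 16 mucosal defence genes called (-1.03, adjusted p = 0.017), where 0.209% of all genes were called lower.

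Of the 40 genes called lower, 25 were called lower in WT too, where 13.5% of all genes were. Of the 184 called higher, 151 were called higher in WT, where 34.1% of all genes were. None of the 10 falls was still called without KO7 or without the culture term.

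Absorptive, Paneth and cycling cell genes had no calls (1.17% of all genes were called). The 30 Paneth cell genes had medians of -0.30 in KO7 and -0.21 in KO2 against 1.61 in WT. Of them, 22 had a called smaller response in KO than in WT (3.2% of all genes). Over all genes, 26 calls of a more negative response were left without WT10 and 33 without WT30. Lyz1, the Paneth cell lysozyme gene, measured 301 and 246 CPM in KO7, and 353 and 360 CPM in KO2, all between the levels of the WT doses (134 to 173 CPM at 5 ng/ml, 468 to 695 CPM at 100 ng/ml). The 27 brush border and transport genes had medians of -0.55 in KO7 and 0.13 in KO2, and the 19 lipid handling genes of -0.81 and 0.02.

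Apob, the apolipoprotein gene of chylomicrons, measured 1723 and 1028 CPM in KO7, and 1479 and 2337 CPM in KO2, in opposite ways. The 30 cell cycle genes were positive in 27 cases in KO7 and negative in 29 cases in KO2, with medians of 0.25 and -0.33. The remaining lists each had 2 calls at most, where 0.962% of all genes were called higher and 0.209% lower. Of 22 Notch pathway and fate genes Atoh1 was the one called. Of 17 BMP genes the ligand gene Bmp8b was called higher (0.85) and the inhibitory Smad6 lower (-0.88), and of 14 tuft cell genes Ptgs1 was called higher (1.24). None of 21 cholesterol synthesis and 19 MHC and interferon-induced genes was called.

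**Figure D5:**
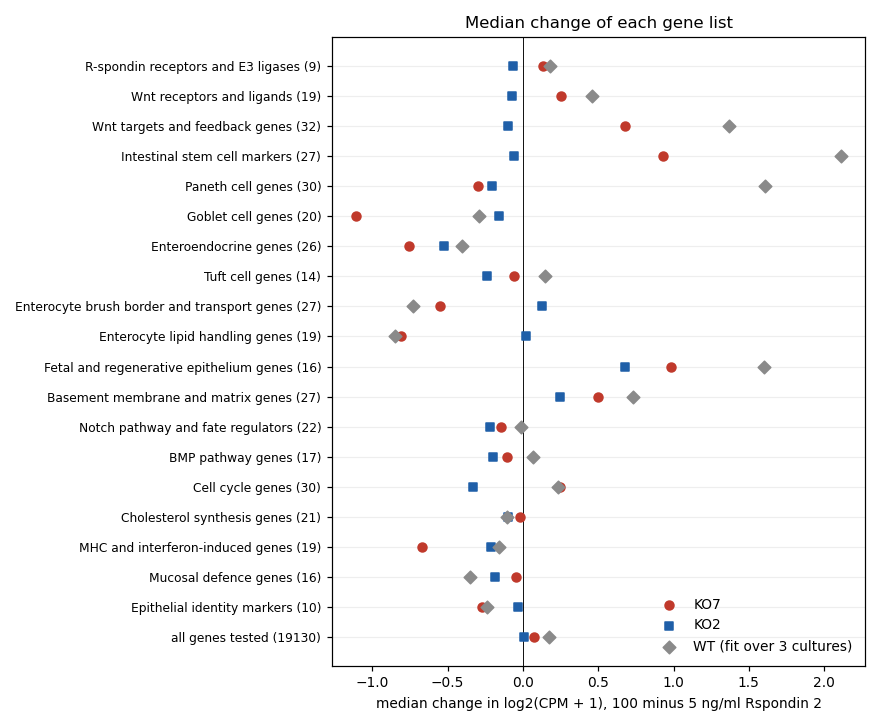
Median change in log2(CPM + 1) between 100 and 5 ng/ml of Rspondin 2 for 19 gene lists and for all genes tested, in KO7 (red circles), KO2 (blue squares) and the WT fit over 3 cultures (grey diamonds), with the number of genes tested in brackets. KO7 lies between KO2 and WT for the Wnt and stem cell lists, both KO cultures lie on the side opposite to WT for the Paneth list, and all 3 lie on the same side for the fetal, matrix and enteroendocrine lists.

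Some genes outside the naming rule separated the cultures in other ways, and were chosen after their values were seen. Igfbp5, an IGF binding protein gene, measured 57 and 225 CPM in KO7, and 34.6 and 949.5 CPM in KO2, and Ranbp3l measured 1.85 and 27.7 CPM in KO7, and 1 and 54.8 CPM in KO2. The changes were 1.96 and 4.74 for Igfbp5 and 3.33 and 4.80 for Ranbp3l, and neither gene was called (adjusted p = 0.20 and 0.091). Genes at least 1 higher in KO2 with a change under 0.3 in KO7 included the Notch regulator gene Neurl1b, with 157 and 350.0 CPM in KO2 and 332 and 339 CPM in KO7, and Cyp2c38, with 34.1 and 84 CPM in KO2 and 13.3 and 11.6 CPM in KO7. The heat shock gene Hspa1b was called higher (13.6 and 28.8 CPM in KO7, and 4.7 and 21.6 CPM in KO2), and as Hspa1a is a near-identical copy, their reads cannot be told apart with certainty.

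The same KO cultures were grown with Rspondin 1 and Rspondin 3 at both doses, which places the Rspondin 2 values. Axin2 at 5 ng/ml measured 11.2 CPM in KO7 and 55.3 CPM in KO2 with Rspondin 1, and 3.25 and 3.5 CPM with Rspondin 3. With Rspondin 2 it measured 138 and 433 CPM at that dose, above all 4 of these. At 100 ng/ml Axin2 measured 258 and 417 CPM with Rspondin 1, which overlapped with the values for Rspondin 2, and 162 and 240.4 CPM with Rspondin 3, below all values of the other two ligands. The dose response of Axin2 was smaller with Rspondin 2 than with Rspondin 1 by -2.94 (SE 0.70, adjusted p = 0.011) and than with Rspondin 3 by -4.80 (SE 0.70, adjusted p = 2.8e-05).

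Over all genes, the dose response in KO differed between Rspondin 2 and Rspondin 1 for 2939 genes (15.4%). It was more positive with Rspondin 2 for 780 (4.08%) and more negative for 2159 (11.3%). Between Rspondin 2 and Rspondin 3 it differed for 6663 genes (34.8%), more positive with Rspondin 2 for 1825 (9.54%) and more negative for 4838 (25.3%). With median-of-ratios scaling these splits were 1043 and 1412, and 2958 and 3523. The first count was 28 without KO7 and 1477 without KO2, and the second 2516 without KO2. The KO2 library with 100 ng/ml of Rspondin 1 held 213 CPM of Xist, against at most 39.1 CPM in the other KO libraries; its part in the first count was not tested. Spp1 with Rspondin 1 reached 2.15 and 5.15 CPM at 100 ng/ml in KO7 and KO2, and its response was larger with Rspondin 2 by 3.21 (adjusted p = 0.0060). With Rspondin 3 it reached 26.7 and 14.3 CPM, and the difference of 1.54 was not called (adjusted p = 0.073).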

How the data were processed

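RNA of organoids was sequenced after depletion of ribosomal RNA. Per the labels, the authors trimmed reads with Trimmomatic 0.36, mapped them with STAR 2.5.3a to GRCm38 and counted them per gene with HTSeq 0.9.1, and they deposited the table as CPM values. These are rounded up in steps of 0.05, so whole reads could not be recovered and no count model was used; depth (18127228 to 33105594 reads on genes in the 30 organoid libraries) was estimated from the steps. A gene was kept (19130 of 52636) where 2 or more libraries reached 1 CPM. The values were fitted as log2(CPM + 1), with no further scaling, with limma 3.58.1 (trend), over all 30 organoid libraries, with 1 mean per condition and a term for each culture (15 residual degrees of freedom), so the spread is shared by all conditions. Replicates are cultures of separate embryos, and same-culture libraries deviated together from their condition means (r from 0.16 to 0.83 over 75 pairs). With 2 KO cultures the deviations of KO7 mirror those of KO2, so the pairs of KO2 repeat those of KO7. Genes were named by rule: the 10 largest rises and falls among called genes with the same sign in both cultures and a mean of at least 5 CPM, with symbols other than Gm numbers and Rik names, the 5 largest called differences from WT each way under the same limits of level and symbol, Lgr5, Lgr4, Axin2, Olfm4, Ascl2 and Lyz1, and members of 21 lists. The genes and lists were chosen with earlier results of these data known. The fit was tested on simulated data. Of 52636 gene identifiers, 52403 matched GENCODE M21 (GRCm38), which gave positions. The values of 1 called list member are not reported here.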

Additional observations from a re-analysis of the deposited data

Results flagged for a closer look

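The responses of KO and WT cultures to Rspondin 2 differed by the test of the difference itself for 760 genes, those to Rspondin 2 and Rspondin 1 within KO for 2939 genes, and those to Rspondin 2 and Rspondin 3 within KO for 6663 genes. Among the genes named, the KO minus WT difference in response was positive for Spp1 (3.80 on the log2 scale), Slc6a19 (1.82), Maob (1.75), E2f2 (1.498), Slc26a3 (1.47) and Slco4a1 (1.23). Of these, Slc6a19, Maob, E2f2 and Slc26a3 were called lower in WT and were not called in KO. The difference was negative for Lgr5 (-3.51), Pcdh8 (-3.51), Rgcc (-3.40), Defa35 (-3.35), Sp5 (-3.21), Olfm4 (-3.14), Axin2 (-3.03), Ascl2 (-2.97), Lyz1 (-2.02), Tnfrsf19 (-1.93), Nkd1 (-1.73) and Atoh1 (-0.85). For Atoh1, called lower in KO, the larger change was that in KO. Of the 5 largest called differences in each direction, 9 of 10 were no longer called without WT10 and 8 of 10 without WT30, and for Spp1 the adjusted p was 0.075 without WT10 and 0.042 without WT30. Both KO cultures carry Ddx3y and the WT cultures do not, so these differences cannot be told apart from differences of sex.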

How the results depend on the processing

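The number of genes called for the Rspondin 2 response in KO, 224, was 37 with the 10 Rspondin 2 libraries alone, 15 over genes with a mean of at least 10 CPM, 110 with a pseudocount of 0.1, and 14 to 383 with 1 KO culture left out (14 without KO7, 383 without KO2). Cultures pair the libraries, and without the replicate block it was 22. With the 4 KO Rspondin 2 libraries alone (1 residual degree of freedom) it was 190, of which 97 were among the 224. The difference between KO and WT, 760 genes, was 0 with the 10 Rspondin 2 libraries (2788 at an unadjusted p under 0.05), 272 over genes of at least 10 CPM, 426 with no filter, 483 with a pseudocount of 0.1, 84 without the block and 28 to 1804 with 1 culture left out. The WT response, 9092 genes, was 5158 at 10 CPM and 4161 (without WT30) to 8577 with 1 culture left out. The difference between Rspondin 2 and Rspondin 1, 2939 genes, was 1682 with no filter, 425 without the block and 28 to 1477 with 1 KO culture left out, and that between Rspondin 2 and Rspondin 3, 6663 genes, was 4294 without the block and 2516 to 5131. The difference between KO7 and KO2, 0 genes, was 30 with no filter and 1 with a pseudocount of 0.1. Genes with a change of at least 1 were 580 in KO7, 192 in KO2 and 70 in both the same way. They were 2296, 1237 and 429 at 1.5-fold, and 1354, 762 and 254 with a pseudocount of 0.1. Among genes with a mean of at least 5 CPM, an alternative chosen after seeing the data, they were 361 and 125 in KO7 and KO2. The KO7 median of genes higher in WT was 1.25 for those at least 2 higher. Leaving out KO7 or KO2 gave -0.27 to 2.29 for Lgr5, -0.067 to 0.26 for Lgr4, -0.19 to 1.60 for Axin2, -0.53 to 1.22 for Olfm4, -0.74 to 1.39 for Ascl2 and -0.29 to 0.027 for Lyz1, so the sign of these 6 changes depended on the culture. The 20 named rises and falls kept their sign in every setting in which they were tested. They were chosen for the same sign in both KO cultures, so leaving out a KO culture could not change it. Dropping the filter, the trend or the block leaves the change itself as it was, so the kept sign is no support. Each genotype rests on few embryos, which limits the precision, and sex and genotype cannot be told apart.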
